A study of Mus musculus with 16 samples.

Results

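The 10 genes of IGF and insulin signaling examined were *Igf1*, *Igf1r*, *Insr*, *Irs1*, *Irs2*, *Igfbp3*, *Igfbp4*, *Igfbp5*, *Pik3r1* and *Eif4ebp1*. They were chosen by gene symbol, are 10 of the 24421 genes in each count table, and all 10 had enough reads to be tested in both muscles. PolyA RNA had been sequenced from the gastrocnemius (Gas), a mostly fast muscle, and the soleus (Sol), which is rich in slow fibers, of C57BL/6 male mice that were 8 weeks old. LSD1-mKO mice carried floxed *Lsd1* alleles and CreERT2 under the human ACTA1 promoter, which is active in muscle fibers, so that the gene was deleted there and resident cells of other types kept it. WT mice carried the floxed alleles without CreERT2. Both genotypes had received tamoxifen (75 mg/kg, 5 days) and dexamethasone (Dex, 1 mg/kg, 7 days), a synthetic glucocorticoid, and no muscle without Dex was available for comparison. For Gas there were 3 WT and 5 LSD1-mKO libraries and for Sol as many, 16 in total. Gas and Sol stood in separate tables with separate library names, so muscle and any batch cannot be told apart, and the labels do not say whether libraries with the same number came from the same mouse or whether libraries were separate animals, so p-values measure only the spread between these libraries.

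IGF1 and insulin bind the receptors encoded by *Igf1r* and *Insr*, which phosphorylate the docking proteins IRS1 and IRS2. These recruit PI3 kinase, whose regulatory subunit is encoded by *Pik3r1*, and activate Akt and mTORC1. In skeletal muscle this pathway raises protein synthesis and glucose uptake and restrains FoxO factors, and glucocorticoids act against it during muscle wasting. IGF binding proteins hold IGF1 outside the cell and limit or localize its action, and 4E-BP1, encoded by *Eif4ebp1*, blocks cap-dependent translation until mTORC1 phosphorylates it.

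Reads assigned to genes numbered 10130415 to 24576377 per library, and the 10 genes had from 80 to 8133 reads in a library. Levels are given in CPM, the reads of a gene relative to its library size after TMM scaling over the 16 libraries, so that they can be set side by side across muscles. *Lsd1*, listed as *Kdm1a*, was at 37.2 to 48.2 CPM in WT Gas against 12.0 to 17.7 in LSD1-mKO Gas, and at 33.4 to 34.9 CPM in WT Sol against 9.13 to 12.9 in LSD1-mKO Sol. The fast fiber markers summed to 149073 to 172294 CPM in WT Gas and 35208 to 46197 in WT Sol, and the slow fiber markers to 995 to 2213 CPM and 27880 to 32211 CPM, as the muscle labels state. On the leading principal component of Gas, WT replicate 3 was at 89.6 and the other 7 libraries at -30.4 to 22.4. That library also had the highest mean level of ribosomal protein genes (8.68 log2 CPM, against 7.12 to 7.94 in the remaining Gas libraries). In the bulk tissue, fewer cells of a type and less RNA per cell cannot be told apart.

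No difference between the genotypes was detected in any of the 10 genes by the edgeR quasi-likelihood test, in either muscle. In Gas 0 of 10 passed an adjusted p of 0.05, where 0.0307% of the 13040 genes tested did, and in Sol 0 of 10, where 0.967% of 13342 did. *Igf1* alone had an unadjusted p under 0.05, in Gas, where 9.06% of all genes had one, and in Sol 0 of the 10 had one against 15.5% of all genes. In neither muscle were the genotypes' ranges separate for any of the 10 genes, whereas they were for 6.95% of genes in Gas and 10.8% in Sol. DESeq2 also called 0 of 10 in each muscle. Between the muscles 3 of 10 passed the test in each genotype, where 17% of the 13749 genes tested did in WT and 24.5% in LSD1-mKO. *Igf1*, *Igfbp4* and *Eif4ebp1* were higher in Gas than in Sol, in WT as well as in LSD1-mKO, and the other 7 genes did not pass.

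**Figure D1:**
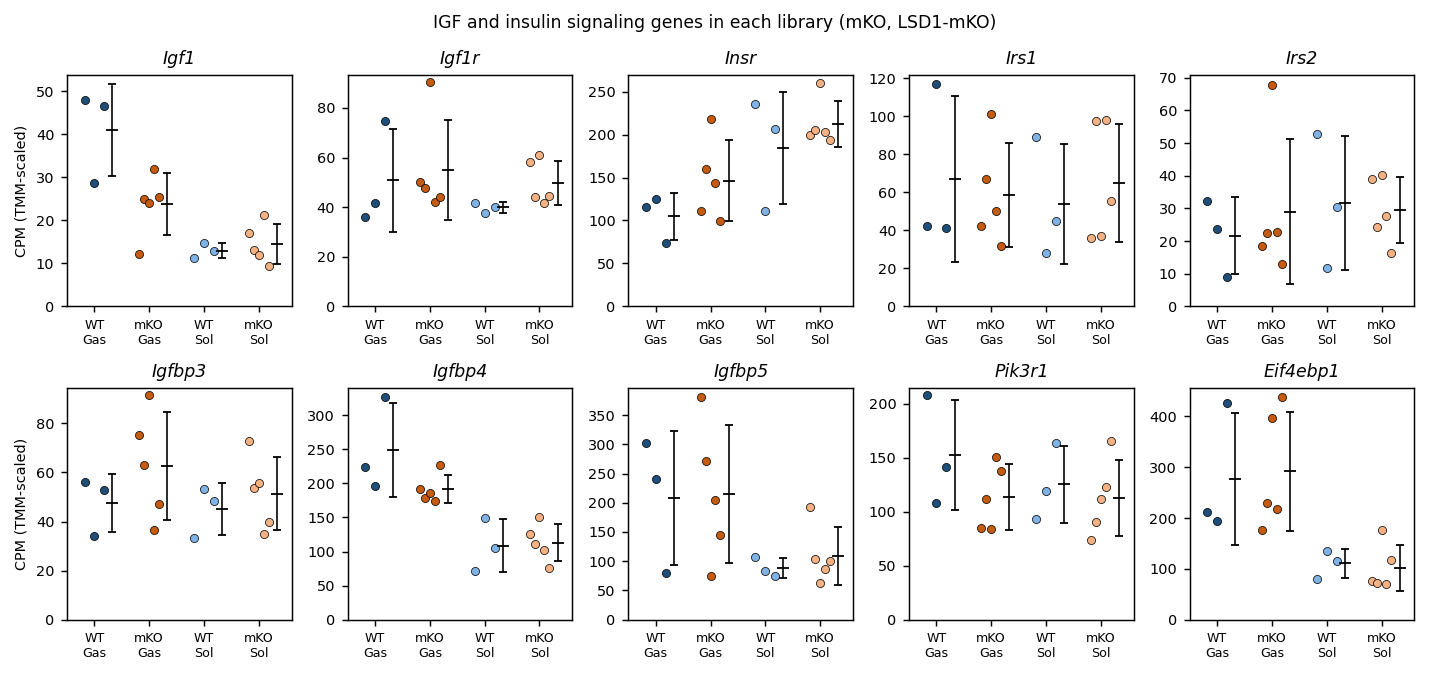
CPM (y axis, linear, from 0) of the 10 genes in each library of WT Gas, LSD1-mKO Gas, WT Sol and LSD1-mKO Sol (x axis), with points for libraries and a bar for the mean ± SD. The WT and LSD1-mKO points overlap within each muscle in every panel, and *Igfbp4* and *Eif4ebp1* lie higher in every Gas library than in any Sol library.

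*Igf1* encodes the ligand, which muscle fibers, fibroblasts and macrophages can all make, and lies on chromosome 10 (GRCm38, chr10:87858265-87937042, plus strand). Its level was 47.9, 28.7 and 46.5 CPM in the 3 WT Gas libraries and 12.3, 25.1, 23.9, 32.0 and 25.5 CPM in the 5 LSD1-mKO Gas libraries. Sol libraries were at 11.2, 14.7 and 12.9 CPM in WT and 17.1, 13.1, 11.9, 21.1 and 9.34 CPM in LSD1-mKO. WT Gas replicates 1 and 3 were above every other library, WT Gas replicate 2 lay within the LSD1-mKO Gas range, and the Sol groups overlapped. The mean was 41.0 ± 10.7 CPM (SD, n = 3) in WT Gas and 23.7 ± 7.14 (n = 5) in LSD1-mKO Gas, and 12.9 ± 1.79 and 14.5 ± 4.64 CPM in WT and LSD1-mKO Sol. The groups ordered as WT Gas, LSD1-mKO Gas, LSD1-mKO Sol and WT Sol, and no 2 neighbours in that order were apart by more than their SDs.

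In Gas *Igf1* had a log2 fold change between LSD1-mKO and WT of -0.79 (SE 0.29, 95% interval -1.42 to -0.15), with an unadjusted p of 0.0200 and an adjusted p of 0.487 by the quasi-likelihood test. In Sol it was 0.16 (SE 0.25, 95% interval -0.39 to 0.70), with an adjusted p of 0.820. The interaction, the Gas effect minus the Sol effect, was -0.96 (SE 0.40), with an unadjusted p of 0.0290 and an adjusted p of 0.987 by the quasi-likelihood test. No gene passed that test at an adjusted p of 0.05 (percent called 0), and 4.88% of 13749 genes had an unadjusted p under 0.05. The Gas value stayed negative when any of the 8 Gas libraries was left out (-0.97 to -0.62), and its adjusted p was then between 0.294 and 0.806.

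Between the muscles, *Igf1* was 3.17-fold higher in Gas than in Sol in WT, which is 1.66 on the log2 scale (SE 0.32, adjusted p = 0.00210, quasi-likelihood test), and every WT Gas library was above every WT Sol library. The call held without any 1 of the 16 libraries (1.53 to 1.84). In LSD1-mKO the difference was 0.70 (SE 0.25, adjusted p = 0.0462), and the ranges overlapped, since LSD1-mKO Gas replicate 1 at 12.3 CPM lay inside the Sol range. This call was lost when any of 10 libraries was left out, LSD1-mKO Gas replicates 2 to 5, LSD1-mKO Sol replicates 2, 3 and 5, WT Gas replicate 1 and WT Sol replicates 2 and 3, where the adjusted p was between 0.0510 and 0.105, and the log2 fold change stayed at 0.58 or more. It was also lost with the replicate number as a block (0.71, adjusted p = 0.0695) and after adjustment for the ribosomal protein level (0.62, adjusted p = 0.115).

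The summed levels of the fibroblast and macrophage marker lists had their highest mean in WT Gas, as did *Igf1*. So did the fast fiber and skeletal muscle fiber lists. The fast fiber list summed to 149073 to 172294 CPM in WT Gas and 117171 to 153082 in LSD1-mKO Gas. The skeletal muscle fiber list summed to 86416 to 100362 CPM in WT Gas and 57935 to 94433 in LSD1-mKO Gas. Other lists went the other way, with all 7 slow fiber genes and 3 of the 4 Schwann genes higher in LSD1-mKO Gas. The fibroblast list (7 genes, of which *Gsn* and *Dcn* made up most of the sum) summed to 3326 to 4479 CPM in WT Gas, 2305 to 2831 in LSD1-mKO Gas, 1832 to 2820 in WT Sol and 956 to 2650 in LSD1-mKO Sol, with 0 of its genes at 0. All 7 were lower in LSD1-mKO Gas than in WT Gas and 0 were called. By the quasi-likelihood test 3 of them had an unadjusted p under 0.05, where 9.06% of all genes in Gas had one. In Sol 4 were higher and 3 lower, with *Col3a1* at a mean of 132 CPM in WT and 385 in LSD1-mKO. The macrophage list (6 genes) summed to 120 to 180 CPM in WT Gas and 95.9 to 118 in LSD1-mKO Gas, and to 56.6 to 80.5 CPM in WT Sol and 48.1 to 128 in LSD1-mKO Sol. Of its 6 genes, 5 were lower in LSD1-mKO Gas and 1 was higher, with a median log2 fold change of -0.086, and in Sol 5 were higher and 1 lower. The largest drops in the macrophage sum in Gas were in the complement genes *C1qa* and *C1qb*. Their means were 54.1 and 27.8 CPM in WT Gas and 29.9 and 19.8 in LSD1-mKO Gas. *Csf1r*, *Mrc1* and *Adgre1* changed less, from 28.9, 21.9 and 5.99 CPM to 27.0, 20.7 and 5.70. *Cd68*, a lysosomal membrane protein gene, was at 2.36 to 3.78 CPM in WT Gas and 4.07 to 6.19 in LSD1-mKO Gas. Its ranges did not overlap, as for 6.95% of all genes in Gas. These marker genes were named after their values were seen. For the sums of the fibroblast and macrophage lists the genotypes were separate in Gas and overlapped in Sol. The part of any of these lists in the *Igf1* result was not tested.

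**Figure D2:**
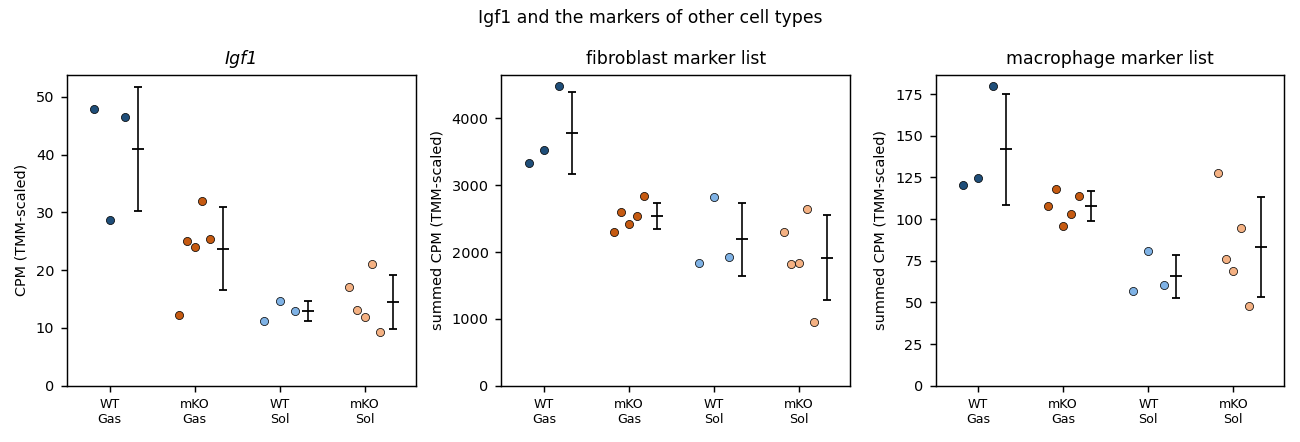
CPM of *Igf1* and summed CPM of the fibroblast and macrophage marker lists (y axes, linear, from 0) in each library of the 4 groups, with the mean ± SD. In all 3 panels WT Gas has the highest mean, and the WT Gas points are above the LSD1-mKO Gas points in both marker panels but overlap them for *Igf1*.

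Over the 16 libraries, the genes whose centred log2 CPM differed least from that of *Igf1* were *Plau*, the urokinase that activates plasminogen, *Tk1*, a thymidine kinase of dividing cells, and *Smoc2*, a matricellular protein. The root mean square difference was 0.36 for *Plau*, 0.36 for *Tk1* and 0.37 for *Smoc2* on the log2 scale, where *Igf1* itself varied by 0.71. Their mean CPM in WT Gas, LSD1-mKO Gas, WT Sol and LSD1-mKO Sol was 63.2, 44.0, 24.4 and 29.9 for *Plau* and 110, 71.1, 32.5 and 42.2 for *Smoc2*. *Tk1* was much lower, at 3.58, 2.64, 1.52 and 1.54 CPM. The 16 values share the 2 muscles and the library scaling, and the likeness is a description.

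*Igf1r* and *Insr* encode the receptors and neither passed the quasi-likelihood test in any of the 5 comparisons with all libraries. *Igf1r* (chr7:67952827-68233668, plus strand) was at 36.2, 41.6 and 74.5 CPM in WT Gas and 50.3, 47.8, 90.4, 42.2 and 44.1 CPM in LSD1-mKO Gas. The Sol values were 41.9, 37.6 and 40.1 CPM in WT and 58.0, 44.2, 60.9, 41.8 and 44.6 CPM in LSD1-mKO. All but 1 LSD1-mKO Sol library lay above the WT Sol range, and LSD1-mKO Gas replicate 3 and WT Gas replicate 3 were the highest of the 16. The genotype difference was 0.12 (SE 0.31) in Gas and 0.31 (SE 0.16) in Sol, with an unadjusted p of 0.0689 and an adjusted p of 0.367 in Sol.

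*Insr* (chr8:3122061-3279617, minus strand), whose product binds insulin, had higher mean CPM in Sol than in Gas in both genotypes. WT Gas libraries were at 115, 125 and 74.1 CPM and LSD1-mKO Gas libraries at 111, 160, 218, 143 and 99.7. WT Sol libraries were at 236, 110 and 206 CPM and LSD1-mKO Sol libraries at 199, 205, 261, 203 and 194. WT Sol replicate 2 lay in the Gas range, and LSD1-mKO Gas replicate 3 lay in the Sol range. The Gas minus Sol difference was -0.81 (SE 0.30, adjusted p = 0.0708) in WT and -0.54 (SE 0.23, adjusted p = 0.0992) in LSD1-mKO. It passed without WT Sol replicate 2 in WT (-1.07, adjusted p = 0.0173) and without LSD1-mKO Gas replicate 3 in LSD1-mKO (-0.70, adjusted p = 0.0349). DESeq2 called the WT difference (adjusted p = 0.0460), and voom with quality weights called it in both genotypes (adjusted p = 0.00148 in WT and 0.0105 in LSD1-mKO). The genotype difference was 0.48 (SE 0.29, adjusted p = 0.582) in Gas and 0.20 (SE 0.22, adjusted p = 0.719) in Sol.

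*Irs1* and *Irs2*, the docking proteins that pass the receptor signal to PI3 kinase, varied widely among libraries of the same group. *Irs1* (chr1:82233101-82291416, minus strand) spanned 41.4 to 117 CPM in WT Gas, 31.7 to 101 in LSD1-mKO Gas, 28.1 to 89.1 in WT Sol and 36.2 to 98.1 in LSD1-mKO Sol. *Irs2* (chr8:10984681-11008458, minus strand) spanned 9.07 to 32.3, 13.0 to 67.9, 11.8 to 52.8 and 16.4 to 40.2 CPM in the same order. Their coefficients of variation within a group lay between 46.5% and 64.9% for *Irs1* and between 34.0% and 76.4% for *Irs2*. The genotype difference of *Irs1* was -0.20 (SE 0.43) in Gas and 0.26 (SE 0.42) in Sol. That of *Irs2* was 0.40 (SE 0.54) in Gas, with a 95% interval of -0.80 to 1.61, and -0.11 (SE 0.40) in Sol. The 95% interval for *Irs1* spanned -1.16 to 0.76 in Gas, and the Sol interval spanned -0.66 to 1.17. Neither gene passed the test between the muscles, with adjusted p-values of 0.723 and 0.563 in WT and 0.823 and 0.972 in LSD1-mKO (quasi-likelihood test).

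**Figure D3:**
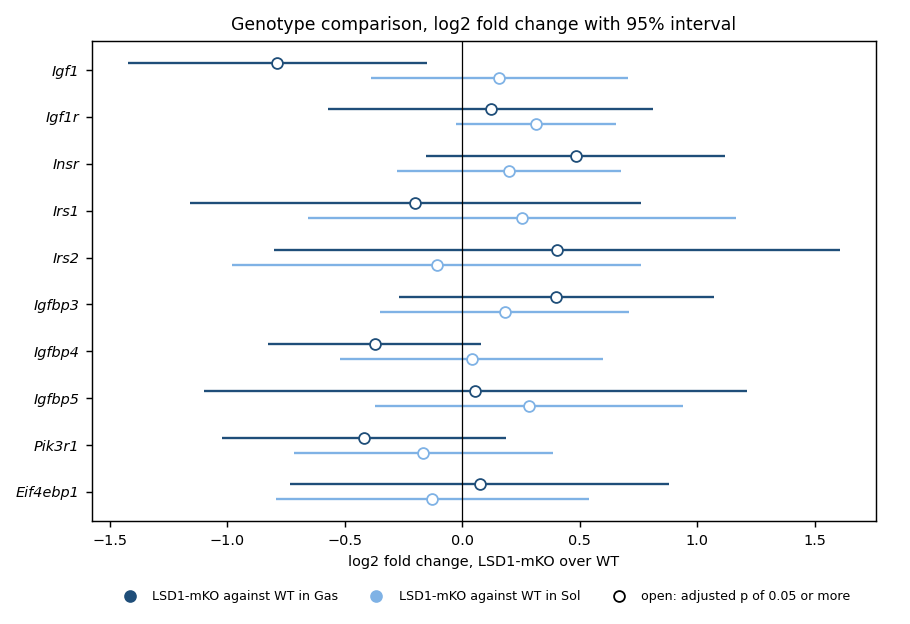
Log2 fold change of LSD1-mKO over WT (x axis) for the 10 genes (y axis) in Gas and Sol, with the 95% interval of the quasi-likelihood fit as a line. All points are open, since none passed an adjusted p of 0.05, and the *Igf1* interval in Gas is the only one that leaves out 0.

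*Igfbp3*, *Igfbp4* and *Igfbp5* encode binding proteins of one family, and their upstream sequences are shown. Only *Igfbp4* was called between the muscles with all libraries by the quasi-likelihood test. The Gas minus Sol difference of *Igfbp5* was at least as large with a wider spread, and no test compared the 3 genes. RefSeq promoter entries (GRCm38.p6) were available for 8 of the 10 genes, without *Insr* and *Eif4ebp1*. The sequences are the 250 bases before the listed start, written 5′ to 3′ on the gene's own strand, less the bases that the annotation gives to an exon in *Igfbp5*. Capitals mark an E-box (CANNTG) or a TATA motif (TATAAA), both searched on both strands.
Igfbp3 (chr11:7213924-7214173, minus strand): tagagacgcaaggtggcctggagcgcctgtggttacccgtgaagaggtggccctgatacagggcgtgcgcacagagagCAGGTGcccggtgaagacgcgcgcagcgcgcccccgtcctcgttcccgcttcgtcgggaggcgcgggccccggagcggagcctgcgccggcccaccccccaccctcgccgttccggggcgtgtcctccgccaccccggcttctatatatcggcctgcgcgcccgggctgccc
Igfbp4 (chr11:99040994-99041243, plus strand): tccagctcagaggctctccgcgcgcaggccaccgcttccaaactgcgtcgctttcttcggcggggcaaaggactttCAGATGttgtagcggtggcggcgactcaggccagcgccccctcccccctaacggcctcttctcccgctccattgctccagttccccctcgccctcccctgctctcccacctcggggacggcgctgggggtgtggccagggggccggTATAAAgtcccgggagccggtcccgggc
Igfbp5 (chr1:72874885-72875115, minus strand): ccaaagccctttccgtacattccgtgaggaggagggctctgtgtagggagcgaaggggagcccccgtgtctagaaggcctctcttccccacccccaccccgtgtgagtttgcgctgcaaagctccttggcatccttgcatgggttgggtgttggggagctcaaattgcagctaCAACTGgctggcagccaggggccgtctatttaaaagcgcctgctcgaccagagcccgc
Each of the 3 held 1 E-box, a motif present in 66.2% of the 32851 entries of 250 bases. *Igfbp4* alone of the 3 held TATAAA, 28 bases before the start, which 12.4% of entries held. Only these exact letters were searched, so similar stretches of T and A in the other sequences were not marked. None of the 3 held the FoxO core GTAAACA (3.17% of entries) or the glucocorticoid half-site AGAACA (16.1%) on either strand. This says only that these letters were not in this window.

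*Igfbp4* (chr11:99041244-99054392, plus strand) was higher in every Gas library than in any Sol library. It was at 223, 196 and 327 CPM in WT Gas and 191, 179, 186, 174 and 227 CPM in LSD1-mKO Gas. Sol levels were 71.5, 149 and 106 CPM in WT and 126, 111, 150, 102 and 76.5 CPM in LSD1-mKO. The order was WT Gas, LSD1-mKO Gas, LSD1-mKO Sol and WT Sol, and only the step from LSD1-mKO Gas (192 ± 21.0, SD, n = 5) to LSD1-mKO Sol (113 ± 27.4, n = 5) exceeded the SDs. The Gas minus Sol difference was 1.19 (SE 0.27, adjusted p = 0.00656) in WT, a 2.29-fold higher level, and 0.76 (SE 0.21, adjusted p = 0.0140) in LSD1-mKO, 1.69-fold. Both calls held without any 1 of the 16 libraries.

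The genotype difference of *Igfbp4* was -0.37 (SE 0.20, adjusted p = 0.566) in Gas and 0.040 (SE 0.26, adjusted p = 0.964) in Sol. After adjustment for the ribosomal protein level the Gas minus Sol calls were lost, at 0.62 (adjusted p = 0.111) in WT and 0.43 (adjusted p = 0.0783) in LSD1-mKO. That level was 7.12 to 8.68 log2 CPM in Gas and 6.44 to 7.30 in Sol.

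*Igfbp5* (chr1:72857932-72874884, minus strand) spread widely within Gas. It was at 302, 240 and 79.9 CPM in WT Gas and 380, 271, 74.6, 205 and 144 CPM in LSD1-mKO Gas. The Sol libraries had 108, 83.8 and 74.8 CPM in WT and 193, 103, 62.8, 87.2 and 99.9 CPM in LSD1-mKO. The library numbered 3 was the lowest and the library numbered 1 the highest in each of the 4 groups. The Gas minus Sol difference was 1.22 (SE 0.52, adjusted p = 0.116) in WT and 0.98 (SE 0.40, adjusted p = 0.0840) in LSD1-mKO. Without WT Gas replicate 3 it passed in both genotypes (1.63, adjusted p = 0.0402, and 1.00, adjusted p = 0.0390), and it also passed in LSD1-mKO without LSD1-mKO Gas replicate 3 (1.22, adjusted p = 0.0274) or LSD1-mKO Sol replicate 1 (1.32, adjusted p = 0.0335). With the replicate block it passed in both genotypes (1.04, adjusted p = 0.0444 in WT, and 0.88, adjusted p = 0.0203 in LSD1-mKO). In LSD1-mKO it also passed after adjustment for the ribosomal protein level (1.42, adjusted p = 0.0290) and by DESeq2 (adjusted p = 0.0432), and with voom quality weights it passed in both (adjusted p = 0.000524 and 0.00213). The genotype difference was 0.055 (SE 0.52) in Gas and 0.28 (SE 0.30) in Sol.

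*Igfbp3* (chr11:7206086-7213923, minus strand) passed neither the genotype nor the muscle tests. Its range was 34.0 to 56.0 CPM in WT Gas, 36.4 to 91.6 in LSD1-mKO Gas, 33.1 to 53.4 in WT Sol and 34.9 to 72.9 in LSD1-mKO Sol. The genotype difference was 0.40 (SE 0.30, adjusted p = 0.643) in Gas and 0.18 (SE 0.24, adjusted p = 0.780) in Sol. The Gas minus Sol difference was 0.083 (SE 0.32) in WT and 0.29 (SE 0.25) in LSD1-mKO.

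*Pik3r1* (chr13:101680563-101768217, minus strand), which encodes the regulatory subunit that docks PI3 kinase on the IRS proteins, was at 208, 108 and 141 CPM in WT Gas and 84.9, 112, 83.8, 151 and 138 CPM in LSD1-mKO Gas. Sol levels were 93.5, 119 and 164 CPM in WT and 73.8, 90.7, 111, 123 and 165 CPM in LSD1-mKO. The 4 groups overlapped. The genotype difference was -0.42 (SE 0.27, adjusted p = 0.601) in Gas and -0.17 (SE 0.25, adjusted p = 0.810) in Sol, and the Gas minus Sol difference was 0.28 (SE 0.32) in WT and 0.012 (SE 0.24) in LSD1-mKO.

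*Eif4ebp1* (chr8:27260329-27276674, plus strand), the translation repressor downstream of mTORC1, was higher in every Gas library than in any Sol library. It was at 212, 194 and 427 CPM in WT Gas and 177, 230, 397, 217 and 437 CPM in LSD1-mKO Gas. The values in Sol were 80.5, 135 and 116 CPM in WT and 76.1, 71.5, 176, 71.2 and 117 CPM in LSD1-mKO. Within each muscle the genotypes overlapped, with 0.074 (SE 0.36, adjusted p = 0.943) in Gas and -0.13 (SE 0.30, adjusted p = 0.888) in Sol. The means ordered as LSD1-mKO Gas, WT Gas, WT Sol and LSD1-mKO Sol, and only the step between the muscles, from 278 ± 130 CPM (SD, n = 3) in WT Gas to 111 ± 27.8 (n = 3) in WT Sol, exceeded the SDs.

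The Gas minus Sol difference of *Eif4ebp1* was 1.33 (SE 0.42, adjusted p = 0.0370) in WT, 2.51-fold, and 1.51 (SE 0.32, adjusted p = 0.00253) in LSD1-mKO, 2.85-fold. The LSD1-mKO call held without any 1 of the 16 libraries. The WT call was lost without WT Gas replicate 3 (0.90, adjusted p = 0.171), without WT Sol replicate 1 (1.13, adjusted p = 0.157) and without WT Sol replicate 3 (1.34, adjusted p = 0.101). After adjustment for the ribosomal protein level it was 0.47 (adjusted p = 0.519) in WT, where the call was lost, and 1.07 (adjusted p = 0.0147) in LSD1-mKO, where it held.

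Over the 10 genes, 3 were called higher in Gas than in Sol in WT and 0 lower, where 8.25% of the 13749 genes tested were called higher and 8.75% lower (17% in all). In LSD1-mKO the same 3 genes were called higher and 0 lower, where 11.6% of all genes were called higher and 12.9% lower (24.5% in all). The muscles' ranges were separate for 3 of 10 genes in WT, against 30.3% of all genes, and for 2 of 10 in LSD1-mKO, against 20.9%. The median log2 difference over the 10 genes was 0.33 in WT and 0.21 in LSD1-mKO, where that of all genes was 0.013 in WT. In the genotype comparisons the medians were 0.065 in Gas and 0.17 in Sol, and those of all genes 0.010 and -0.011.

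**Figure D4:**
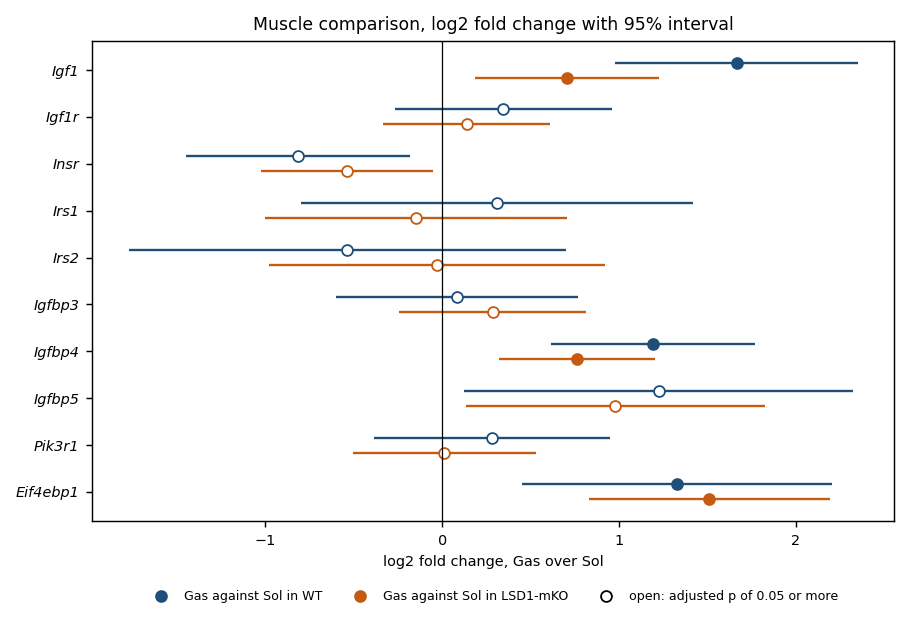
Log2 fold change of Gas over Sol (x axis) for the 10 genes (y axis) in WT and LSD1-mKO, with the 95% interval as a line and filled points for an adjusted p under 0.05. The filled points are *Igf1*, *Igfbp4* and *Eif4ebp1*, all higher in Gas in both genotypes.

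Levels were compared between genes per kilobase of exon, from the union of exons of RefSeq-matched GENCODE transcripts. *Eif4ebp1* had the highest level per kilobase in all 4 groups (139 ± 65.0 CPM per kilobase in WT Gas, 146 ± 58.7 in LSD1-mKO Gas, 55.4 ± 13.9 in WT Sol and 51.2 ± 22.7 in LSD1-mKO Sol, SD, n = 3 or 5). *Igfbp4* came next in all 4, for example at 64.9 ± 18.1 CPM per kilobase in WT Gas and 28.4 ± 10.2 in WT Sol. *Igf1* was the lowest in LSD1-mKO Gas (2.75 ± 0.827), LSD1-mKO Sol (1.68 ± 0.538) and WT Sol, and in WT Gas (4.75 ± 1.24) it stood above *Igf1r* (4.45 ± 1.82) and *Irs2* (3.43 ± 1.86) by less than their SDs. Among the binding proteins, *Igfbp5* was above *Igfbp3* per kilobase in Gas and below it in Sol, by less than the SDs in each group, and with the exons of all transcripts it was above it in Sol too. The receptors differed by more than their SDs in every group, with *Insr* at 11.2 ± 2.88 against 4.45 ± 1.82 for *Igf1r* in WT Gas and at 22.7 ± 2.92 against 4.37 ± 0.775 in LSD1-mKO Sol.

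Libraries varied in a pattern that ran across several of the genes. *Igfbp4* and *Eif4ebp1* were highest, and *Insr*, *Irs1* and *Irs2* lowest, in 3 libraries, replicate 3 of WT Gas, replicate 5 of LSD1-mKO Gas and replicate 2 of WT Sol. These were the libraries with the highest ribosomal protein level of their group, at 8.68, 7.94 and 7.30 log2 CPM. In LSD1-mKO Sol, where that level spanned 6.68 to 6.86, the highest, replicate 5, had the lowest *Insr*, *Irs2* and also the lowest *Igfbp4*. LSD1-mKO Gas replicate 3 was the highest of its 5 in 5 genes, *Igf1r*, *Insr*, *Irs1*, *Irs2* and *Igfbp3*, and the lowest in *Igfbp5* and *Pik3r1*. LSD1-mKO Sol replicate 3 was also the highest of its 5 in 5 genes, *Igf1r*, *Insr*, *Irs2*, *Igfbp4* and *Eif4ebp1*, and the lowest in *Igfbp5*. The part of the ribosomal protein level in these values was not tested.

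**Figure D5:**
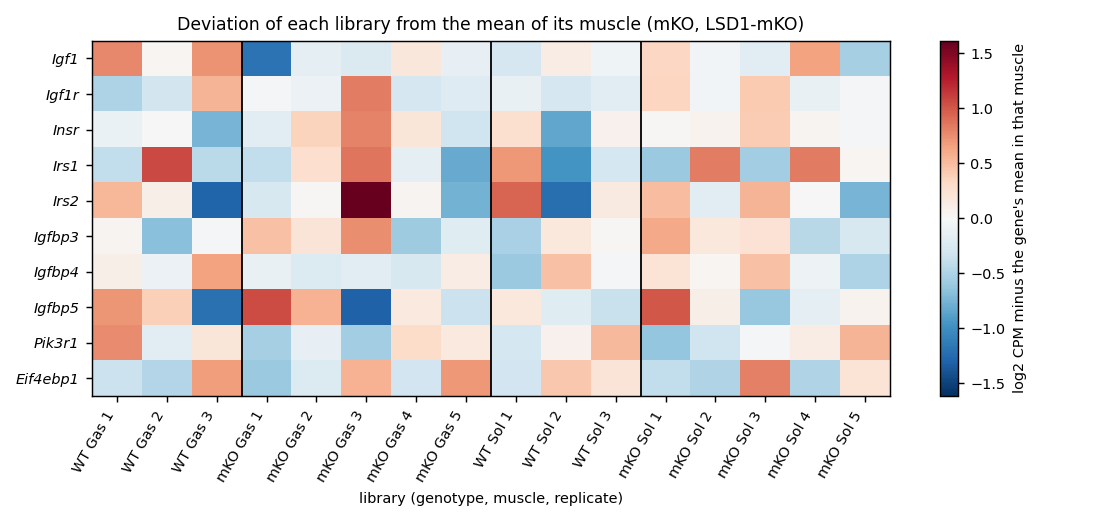
Log2 CPM of the 10 genes (rows) in the 16 libraries (columns) minus the gene's mean over the 8 libraries of that muscle, red above and blue below. *Insr*, *Irs1* and *Irs2* are blue in WT Gas replicate 3 and WT Sol replicate 2 where *Igfbp4* and *Eif4ebp1* are red, and LSD1-mKO Gas replicate 3 is red for *Igf1r*, *Insr*, *Irs1* and *Irs2* and blue for *Igfbp5*.

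The pathway beyond these 10 genes was followed in 67 further genes in 8 lists, from ligands to FoxO factors, of which 60 were tested in Gas, 61 in Sol and 61 over both muscles. By genotype 0 were called in Gas and 0 in Sol, with 4 and 12 at an unadjusted p under 0.05, and 0 for the interaction, with 3. Over all genes 9.06% in Gas, 15.5% in Sol and 4.88% for the interaction had an unadjusted p under 0.05. In Sol DESeq2 called 605 of 13337 genes, 2 of them from these lists, *Grb10*, an adaptor that inhibits the receptors, and *Akt1s1*, an mTORC1 inhibitor. Mean levels in WT Sol and LSD1-mKO Sol were 87.7 and 134 CPM for *Grb10* and 130 and 91.0 for *Akt1s1*. The replicate block called 2 others there, *Grb14* and *Tbc1d4*. The rule for named genes did not include these pathway genes, which were named after their values were seen. Between the muscles 16 were called in WT, 8 higher and 8 lower in Gas (26.2% of those tested), and 20 in LSD1-mKO, 11 higher and 9 lower (32.8%), where 17% and 24.5% of all genes were called. In WT the count fell to 3 without WT Sol replicate 1 and to 4 without WT Sol replicate 3. Over all genes the WT count ran from 1132 to 2839 when 1 library was left out, against 2337 with all libraries. Of the calls, 13 were shared by both genotypes, all in the same direction, 13 of the 16 in WT and 13 of the 20 in LSD1-mKO.

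Among these further genes, the largest muscle differences in WT were those of *Ptprf* and *Deptor*. *Ptprf*, a receptor phosphatase that acts on the insulin receptor, was at 24.8 ± 9.85 CPM in WT Gas and 5.13 ± 1.16 in WT Sol (SD, n = 3), a log2 difference of 2.27 (adjusted p = 0.00101, quasi-likelihood test). *Deptor*, an inhibitor inside mTOR complexes, was at 161 ± 28.9 CPM in WT Gas and 42.6 ± 1.67 in WT Sol, a difference of 1.92 (adjusted p = 0.000165), and at 185 ± 64.7 CPM in LSD1-mKO Gas and 48.0 ± 8.13 in LSD1-mKO Sol (1.95, adjusted p = 5.99e-06). In LSD1-mKO the next largest was *Foxo1*, the transcription factor that Akt restrains, at 178 ± 47.9 CPM in Gas and 52.6 ± 6.99 in Sol (1.76, adjusted p = 0.000762). By list, the PI3K and Akt genes had 1 called higher and 4 lower in Gas in WT and 2 and 4 in LSD1-mKO, of 15. The mTORC1 and translation genes had 2 and 2 in WT and 2 and 1 in LSD1-mKO, of 16, and the IGF binding proteins and proteases 2 higher and 0 lower in both, of 7. The adaptors and receptor inhibitors had 1 higher and 2 lower in both, of 12, and the FoxO factors 1 and 0 in WT and 2 and 1 in LSD1-mKO, of 4. The glycogen and glucose transport genes had 1 called higher in WT and 2 in LSD1-mKO, of 5, and 0 lower.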

How the data were processed

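PolyA RNA from Gas and Sol (3 WT and 5 LSD1-mKO libraries per muscle) was read as single ends of 75 bp. Alignment to mm10 was done by the authors with STAR, who, per the file headers, obtained the deposited raw read counts per gene with featureCounts 1.5.2 from the iGenomes UCSC exons. No strand option was named and reads on several genes or places were dropped, so overlapping or antisense genes are uncertain. The deposited tables of the authors' own comparisons were not used. Samples were grouped by genotype and muscle in the labels, and 0 columns belonged to other samples.

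The analysis used R 4.3.3 with limma 3.58.1 and edgeR 4.0.16. Genes were kept by filterByExpr (minimum count 10), libraries scaled by TMM, and groups compared with the two-sided quasi-likelihood F-test. Genotypes were compared in each muscle's 8 libraries, and muscles and the interaction in a fit of 16. A gene was called at a Benjamini-Hochberg adjusted p under 0.05 over all genes tested. The SE is the log2 fold change over the square root of F, and the 95% interval uses the fit's degrees of freedom. CPM are on TMM-scaled library sizes of the 16 libraries. Count-based precision rests on 10130415 to 24576377 reads per library. The scripts were tested on simulated counts.

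The 10 genes, the pathway and marker lists and the alternatives were chosen with earlier results of these data known. The rule named all 10 genes, *Kdm1a*, the 3 genes most like *Igf1*, pathway genes called by genotype, and the 2 largest called in each muscle comparison. Alternatives were RLE scaling, no filter, DESeq2 1.42.0, the edgeR exact test for the genotypes, the replicate number as a block, the ribosomal protein level (80 genes) as a covariate and each library left out in turn. Limma voom with library quality weights was added after seeing the data. Other marker lists were summed per library as checks of tissue. Hemoglobin genes, 4 of the 5 in the blood cell list, were listed at 0 in every library. Coordinates and exon lengths are GENCODE vM21 (GRCm38), which may differ from the annotation counted.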

Additional observations from a re-analysis of the deposited data

Results flagged for a closer look

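Each gene's 5 LSD1-mKO libraries in each muscle were examined for a library far from the others, 20 sets in all, of which chance would give 1. In 3 sets the highest library's gap to the next was over 0.71 of the whole range. *Igf1r* in LSD1-mKO Gas replicate 3 was at 90.4 CPM against 42.2 to 50.3 in the other 4 (0.832 of the range). *Irs2* in the same library was at 67.9 CPM against 13.0 to 22.9 (0.82). *Insr* in LSD1-mKO Sol replicate 3 was at 261 CPM against 194 to 205 (0.83). Neither *Igf1r* nor *Irs2* was called between genotypes in Gas, with or without LSD1-mKO Gas replicate 3.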

How the results depend on the processing

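For the genotype comparisons and the interaction, 0 of the 10 genes were called under every alternative run. For Gas against Sol the count of called genes was 3 in WT and 3 in LSD1-mKO, and it stayed at 2 to 4 in both when 1 library was left out. In WT it fell to 1 (*Igf1*) with the ribosomal protein covariate and rose to 5 with voom quality weights, where *Insr* and *Igfbp5* were added, and in LSD1-mKO it fell to 2 (*Eif4ebp1* and *Igfbp5*) with the covariate and rose to 5 with voom for the same 2 genes. Over all 13749 genes voom called 5599 in WT and 5374 in LSD1-mKO, against 2337 and 3367 by the quasi-likelihood test. With the covariate these counts were 1906 and 3693. DESeq2 added *Insr* in WT (4 called) and *Igfbp5* in LSD1-mKO (4). Of 13736 genes it called 2996 in WT and 3985 in LSD1-mKO. The cause was not tested. With no filter 3 genes were called in each.

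The replicate numbers do not pair the samples by the labels. The correlation of deviations between Gas and Sol of the same number was 0.12, -0.52 and -0.26 in WT and 0.21 to 0.36 in LSD1-mKO. In LSD1-mKO 5 of 5 Gas libraries matched their own number best, which is a hint from the data and not the design. In WT, Gas replicates 1, 2 and 3 matched Sol replicates 3, 1 and 2 best, so none matched its own number. With the replicate block 4 genes were called in WT (*Igfbp5* at 1.04, adjusted p = 0.0444, was added) and 3 in LSD1-mKO, where *Igfbp5* (0.88, adjusted p = 0.0203) took the place of *Igf1*. That block joined Gas and Sol of the same genotype and number. In the genotype comparisons it joined WT and LSD1-mKO libraries of the same number, which are different mice. LSD1-mKO replicates 4 and 5 had no WT partner there and did not bear on the estimate. The correlation of deviations between such partners was 0.19, 0.31 and -0.16 in Gas and 0.092, -0.0062 and 0.13 in Sol. The block changed no genotype call among the 10 genes. Over all genes it called 412 by genotype in Sol, against 129.

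No reversed value belonged to a gene called in that comparison by the quasi-likelihood test. With the block, the genotype difference in Gas was 0.16 for *Irs1* and -0.037 for *Eif4ebp1*, and in Sol 0.30 for *Irs2*. With the ribosomal protein covariate it was -0.18 for *Irs2* and -0.18 for *Igfbp5* in Gas and 0.13 for *Irs2* in Sol, the interaction was -0.14 for *Insr* and -0.37 for *Irs2*, and Gas against Sol was 1.12 for *Irs2* and -0.095 for *Igfbp3* in WT and 0.44 for *Irs1*, 0.75 for *Irs2* and -0.036 for *Pik3r1* in LSD1-mKO. With voom the genotype difference in Gas was -0.25 for *Irs2* and -0.24 for *Igfbp5*, the interaction 0.12 for *Igf1r* and Gas against Sol in WT -0.059 for *Igf1r*. Leaving out 1 library turned some of the uncalled log2 fold changes. For the genotype in Gas, they ran for *Eif4ebp1* from -0.12 to 0.53, *Igf1r* from -0.13 to 0.51, *Igfbp5* from -0.32 to 0.43, *Irs1* from -0.49 to 0.51 and *Irs2* from -0.18 to 0.80. For the genotype in Sol, they ran for *Eif4ebp1* from -0.42 to 0.057, *Igf1* from -0.013 to 0.28, *Igfbp4* from -0.18 to 0.35, *Igfbp5* from -0.0055 to 0.46, *Insr* from -0.057 to 0.42, *Irs1* from -0.049 to 0.82, *Irs2* from -0.49 to 0.47 and *Pik3r1* from -0.34 to 0.089. For the interaction, they ran for *Igf1r* from -0.43 to 0.17, *Igfbp5* from -0.63 to 0.13, *Irs1* from -1.01 to 0.24, *Irs2* from -0.069 to 0.91 and *Pik3r1* from -0.48 to 0.021. For Gas against Sol in WT, they ran for *Igf1r* from -0.011 to 0.54, *Igfbp3* from -0.10 to 0.25, *Irs1* from -0.39 to 0.88, *Irs2* from -0.94 to 0.056 and *Pik3r1* from -0.0085 to 0.51. For Gas against Sol in LSD1-mKO, they ran for *Igf1r* from -0.094 to 0.24, *Irs1* from -0.42 to 0.071, *Irs2* from -0.60 to 0.15 and *Pik3r1* from -0.090 to 0.19.

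Further pathway genes called by genotype in Sol numbered 0 by the quasi-likelihood test, 2 with DESeq2, 2 with the block, 1 with the covariate, 1 with the edgeR exact test and 5 with voom. Gas against Sol in WT had 9 with the covariate and 32 with voom, against 16. Over all genes, Gas genotype calls numbered 4 by the quasi-likelihood test, 132 by DESeq2, 103 by the exact test and 340 with voom, and Sol calls 129, 605, 558 and 730. Without length, *Insr* had the highest CPM in both Sol groups, where it was the third per kilobase, and with the exons of all transcripts it was the fifth there. With 3 WT libraries, the 95% intervals of the genotype difference in Gas reached beyond 1 in size on the log2 scale for several genes. Among them were *Igf1*, *Insr*, *Irs1*, *Irs2*, *Igfbp3*, *Igfbp5* and *Pik3r1*.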
